A study of Mus musculus with 16 samples.

Results

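The epithelial sodium channel (ENaC) and its regulators were examined in whole kidneys of mice that had lost Hes1 from tubule epithelium. The set was 8 genes, chosen by name among the 28971 genes of the count table: the subunit genes Scnn1a, Scnn1b and Scnn1g, the kinase gene Sgk1, the ubiquitin ligase gene Nedd4l, and the protease genes Prss8, Tmprss2 and St14. All 8 passed the filter on low counts, as did 15615 genes in all. The mutants, called Hes1 cKO for conditional knockout, were Hes1 f/f and carried the transgenes Pax8-rtTA and TRE->Cre. The Pax8 promoter, active in kidney tubule epithelium, drives rtTA, which with doxycycline switches on Cre and deletes the floxed Hes1 alleles there, while other cells of the kidney keep Hes1. The controls were wild type littermates, and whether any of them carried rtTA or Cre is not given. Both groups drank doxycycline at 1 mg/mL in 5% sucrose for 1 week, starting when they were 3 weeks old. Total RNA from whole kidney was read as 150 bp pairs. The purpose of the study was to find genes that differ between Hes1 cKO and control kidneys.

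ENaC is a channel of the apical membrane, built of alpha (Scnn1a), beta (Scnn1b) and gamma (Scnn1g) subunits, through which principal cells of the collecting duct and cells of the connecting tubule take sodium from the urine. Its surface number is set largely by aldosterone: the hormone induces Sgk1, a kinase that phosphorylates Nedd4l and so keeps this ligase from tagging the channel for removal. Its open state is raised by proteases, among them furin and prostasin (Prss8), that cut extracellular loops of its subunits.

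The libraries used were 3 of Hes1 cKO and 4 of control, named by genotype and a number that is in no sample label. The numbers given to them below therefore only tell them apart. Total counts were 16973931 to 20420422 per library, and the 8 genes had between 698 and 8454 counts each. Hes1 itself was at 17.2 to 19.8 CPM (counts per 1000000 counts of a library size scaled by TMM) in Hes1 cKO and 42.8 to 67.6 CPM in control (edgeR adjusted p 0.00357). Xist, which is read from the X chromosome in females, reached 333 to 367 CPM in control 3, control 4 and Hes1 cKO 3, and its highest level elsewhere was 0.371 CPM. Transcripts of 6 adrenal genes summed to 1060 CPM in Hes1 cKO 3, 791 CPM in control 1, 204 CPM in control 2 and 49.7 CPM in Hes1 cKO 1, and to 2.67 to 4.20 CPM in the remaining 3 libraries. Of the principal cell markers, Aqp2 and Hsd11b2 were well expressed, while the vasopressin receptor gene Avpr2 had no count in 4 of 7 libraries and a highest level of 0.318 CPM.

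Scnn1g and Scnn1b lie in the same orientation on chromosome 7 of GRCm38, with starts 130.6 kb apart, and their levels ran close to each other across the libraries (below). The 250 bases before the RefSeq start of each are therefore shown. They were searched on both strands for the N box CACNAG and the class C site CACGNG, which are the sequences that Hes family repressors are known to bind; capitals mark matches. The other sequence is the 250 bases before the fifth of 6 RefSeq starts of Sgk1, shown because it holds the full palindrome of the glucocorticoid response element (AGAACA, then 3 bases of any kind, then TGTTCT), which the receptors for aldosterone and glucocorticoids bind; there the capitals mark that palindrome only.
Scnn1g (chr7:121734229-121734478, + strand): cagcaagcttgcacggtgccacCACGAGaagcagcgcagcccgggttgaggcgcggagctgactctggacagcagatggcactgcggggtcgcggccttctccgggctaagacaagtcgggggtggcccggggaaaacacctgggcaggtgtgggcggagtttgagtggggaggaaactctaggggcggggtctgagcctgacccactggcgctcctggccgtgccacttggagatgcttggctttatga
Scnn1b (chr7:121864788-121865037, + strand): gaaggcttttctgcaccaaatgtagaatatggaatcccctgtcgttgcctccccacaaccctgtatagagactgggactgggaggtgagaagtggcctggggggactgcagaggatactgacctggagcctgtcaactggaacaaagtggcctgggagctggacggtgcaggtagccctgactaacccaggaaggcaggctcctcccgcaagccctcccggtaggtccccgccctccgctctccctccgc
Sgk1 (chr10:21993640-21993889, + strand): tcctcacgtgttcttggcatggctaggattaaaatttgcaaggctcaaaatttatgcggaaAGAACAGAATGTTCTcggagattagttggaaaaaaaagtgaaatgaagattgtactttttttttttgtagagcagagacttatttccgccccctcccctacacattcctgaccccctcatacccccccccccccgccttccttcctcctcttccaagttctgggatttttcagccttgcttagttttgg

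In the Scnn1g window a single run of letters, beginning 228 bases before the start, matched the N box and the class C site at once, and the Scnn1b window matched neither. Of all 32851 mouse windows of this length, 36.7% held an N box and 23.5% a class C site, so such a match is common. The palindrome in the Sgk1 window, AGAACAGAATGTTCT, begins 189 bases before that start. It occurred in 3 of the 32851 windows (0.00913%). The same window matched the class C pattern CACGNG 246 bases before the start, with the letters CACGTG, and did not match the N box. The windows before Sgk1 starts 3 and 4 each held an N box, 215 and 152 bases before the start. A match is a description of the letters and says nothing of binding in these kidneys.

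None of the 8 genes was called between Hes1 cKO and control. Their adjusted p-values (edgeR quasi-likelihood test, Benjamini-Hochberg) ran from 0.512 to 0.981, where 0.339% of all tested genes had one under 0.05. DESeq2's Wald test and limma-voom called none of them either. At an unadjusted p under 0.05 there were 3 of the 8, higher for St14 and Nedd4l and lower for Scnn1g, against 5.95% of all tested genes (3.34% higher, 2.61% lower). The groups did not overlap for 2 of the 8, St14 and Nedd4l, both higher in Hes1 cKO, against 7.01% of all tested genes (3.71% higher, 3.29% lower). The log2 fold changes ran from -0.34 to 0.39, 4 above and 4 below 0, with a median of -0.076 beside -0.0064 over all tested genes. Their median size regardless of sign was 0.22, beside 0.11 over all tested genes.

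**Figure D1:**
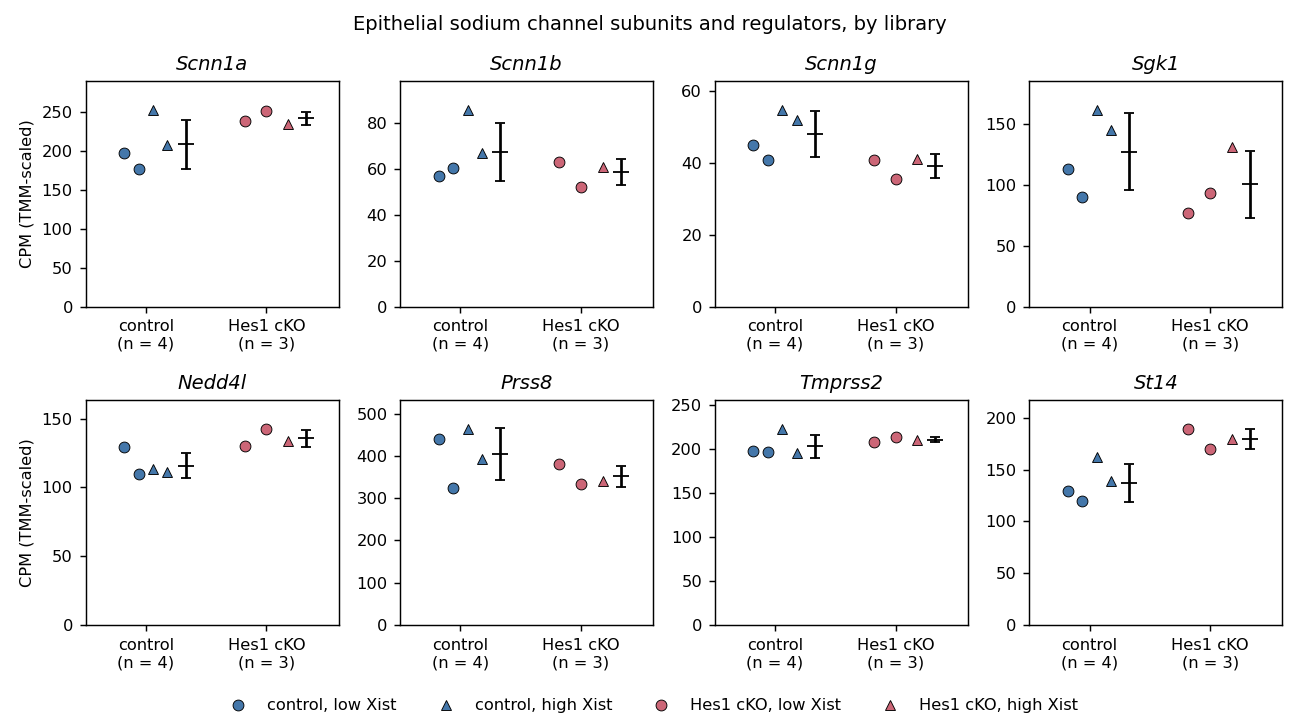
Level of each of the 8 genes in every library, in CPM on TMM-scaled library sizes, for 4 control (blue) and 3 Hes1 cKO (red) libraries; triangles are the libraries with high Xist, and the black bar is the mean with its SD. Only St14 and Nedd4l show groups that do not overlap, and Sgk1 is highest in the 3 libraries with high Xist.

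The fitted differences of the 3 subunit genes had different signs, and none was called. Scnn1a (ENSMUSG00000030340, chr6:125320659-125344943), which codes for the alpha subunit, was at 238, 250.8 and 234 CPM in Hes1 cKO 1, 2 and 3. In control 1 to 4 it was at 197, 176, 251.4 and 207 CPM. The 3 Hes1 cKO libraries lay close together and above 3 of the 4 controls, while control 3 stood level with the highest of them. The means were 241 ± 8.56 CPM (SD, n = 3) and 208 ± 31.9 CPM (SD, n = 4). edgeR put the log2 fold change at 0.21 (SE 0.12), with an adjusted p of 0.927. Its 95% interval, from -0.05 to 0.48, holds 0, and its upper end is a 1.39-fold rise. The log2 fold change ran from 0.14 without control 2 to 0.32 without control 3.

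Scnn1b (ENSMUSG00000030873, chr7:121865038-121918514), the beta subunit gene, was at 63.2, 52.2 and 60.7 CPM in Hes1 cKO 1, 2 and 3. In control it was at 57.1, 60.5, 85.6 and 66.9 CPM. The groups overlapped widely, and control 3 stood apart as the highest. The log2 fold change was -0.20 (SE 0.14, 95% interval -0.52 to 0.12, edgeR adjusted p 0.942). Without control 3 it was -0.067, so that library carries most of this difference.

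Scnn1g (ENSMUSG00000000216, chr7:121734479-121768475), the gamma subunit gene, was at 40.8, 35.4 and 41.1 CPM in the Hes1 cKO libraries. In the controls it was at 44.97, 40.6, 54.5 and 51.7 CPM. The Hes1 cKO libraries took 3 of the 4 lowest places, and control 2 lay among them. The means were 39.1 ± 3.21 CPM (SD, n = 3) and 48.0 ± 6.32 CPM (SD, n = 4). The log2 fold change was -0.30 (SE 0.12, 95% interval -0.56 to -0.03). Its unadjusted p was 0.0317 and its edgeR adjusted p 0.752, so it was not called, and the exact two-sided permutation test over 35 splits gave p = 0.114. In whole kidney RNA, fewer cells that express a gene and less RNA of it per cell cannot be told apart.

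The balance between the subunit transcripts was read as a ratio of CPM per kb of exon within each library, which does not depend on how libraries are scaled. This measure was chosen after the values above had been seen and is given with no test. Scnn1a over Scnn1g was 4.23, 5.13 and 4.13 in Hes1 cKO 1, 2 and 3. In control 1 to 4 it was 3.18, 3.13, 3.34 and 2.89. Every Hes1 cKO library thus lay above every control, and the ratio was 1.43-fold higher in Hes1 cKO. Scnn1a over Scnn1b was 2.40, 3.06 and 2.46 against 2.20, 1.85, 1.87 and 1.97, again without overlap and 1.33-fold higher. Scnn1b over Scnn1g overlapped, at 1.68 to 1.76 in Hes1 cKO and 1.44 to 1.78 in control. Without any 1 library, the log2 difference stayed between 0.42 and 0.57 for Scnn1a over Scnn1g and between 0.30 and 0.48 for Scnn1a over Scnn1b. When Scnn1a was divided by each other tested gene with a mean of at least 5 CPM, Hes1 cKO lay above control without overlap for 11.2% of 11215 genes.

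**Figure D2:**
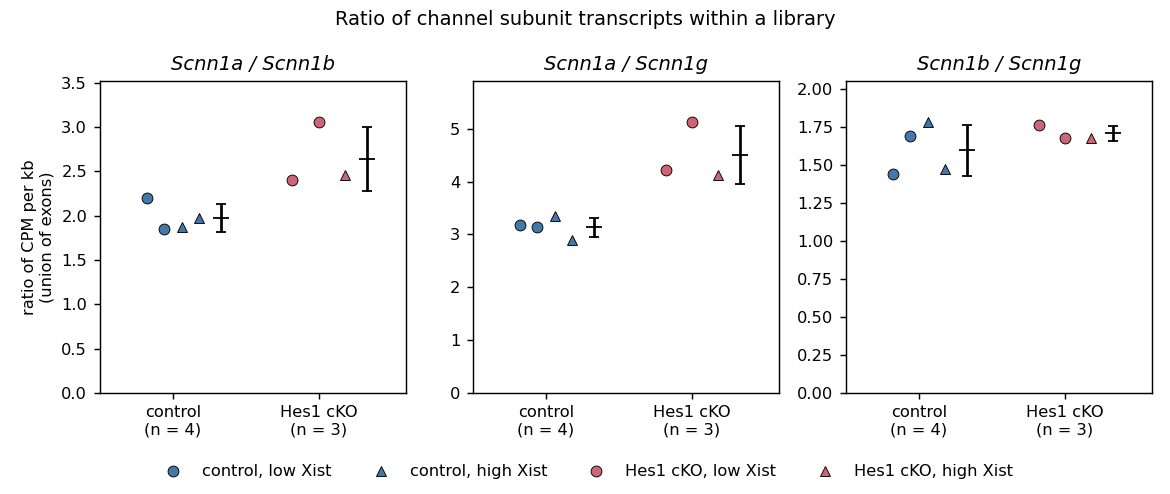
Ratio of subunit transcripts within each library (CPM per kb of exon), with the same colours and symbols as the plot of levels. Both ratios with Scnn1a on top are higher in every Hes1 cKO library than in any control, while Scnn1b over Scnn1g overlaps.

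Among the regulators inside the cell, Sgk1 (ENSMUSG00000019970, chr10:21882184-21999903), the aldosterone-induced kinase, varied most between libraries. It was at 76.6, 93.3 and 131 CPM in Hes1 cKO 1, 2 and 3 and at 113, 90.1, 161 and 144 CPM in control 1 to 4. The 3 libraries with high Xist (131 to 161 CPM) stood above the 4 with low Xist (76.6 to 113 CPM) without overlap, whatever the genotype. The other genes of the set all overlapped on this split. How many of all tested genes separate on it was not counted, so the pattern has no background to be read against. Hes1 cKO and control overlapped, with a log2 fold change of -0.34 (SE 0.22, 95% interval -0.85 to 0.16, edgeR adjusted p 0.940). Within the libraries with high Xist the difference of mean log2(CPM + 1) was -0.22 (1 Hes1 cKO, 2 control), and within those with low Xist it was -0.25 (2 and 2). With Xist as a covariate the log2 fold change was -0.24 (edgeR adjusted p 0.719), and it ran from -0.58 without Hes1 cKO 3 to -0.18 without Hes1 cKO 1. As Hes1 cKO holds 1 and control 2 libraries with high Xist, the share of such libraries also differs between the groups.

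Nedd4l (ENSMUSG00000024589), the ligase that marks ENaC for removal, was at 130, 143 and 134 CPM in the Hes1 cKO libraries. The controls were at 129, 110, 114 and 111 CPM. The groups did not overlap, but the lowest Hes1 cKO library stood only 1.01-fold above control 1. The log2 fold change was 0.23 (SE 0.086, 95% interval 0.03 to 0.42), with an unadjusted p of 0.0262 and an edgeR adjusted p of 0.734. The exact two-sided permutation test gave p = 0.0571, where 35 splits allow no p below 0.0286. Of its exonic bases, 1.57% are shared with a gene on the other strand that had no more than 11 counts in any library.

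St14 (ENSMUSG00000031995, chr9:31089402-31131853) codes for matriptase, a membrane-bound serine protease that can activate prostasin. It was at 189, 170 and 180 CPM in Hes1 cKO 1, 2 and 3. In control 1 to 4 it was at 129, 120, 163 and 139 CPM. All Hes1 cKO libraries were higher than all controls, the lowest by 1.05-fold over control 3. The means were 180 ± 9.71 CPM (SD, n = 3) and 138 ± 18.5 CPM (SD, n = 4), and the fold was 1.31 (log2 0.39, SE 0.11, 95% interval 0.14 to 0.63). This was the largest difference of the 8 in size and in unadjusted p (0.00638), but its edgeR adjusted p was 0.512, and 0.129 by DESeq2's Wald test. Its exact two-sided permutation p was 0.0571. The 5 markers of urothelium, the lining of the renal pelvis, summed to 29.3 to 51.7 CPM in Hes1 cKO and 27.8 to 34.4 CPM in control, and their part in this value was not tested.

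Prss8 (ENSMUSG00000030800, chr7:127925716-127930104), the gene of prostasin, was at 381, 334 and 340 CPM in the Hes1 cKO libraries. The controls were at 441, 324, 464 and 392 CPM. Control 2 was the lowest of all 7 libraries and the other 3 controls were the highest, so the groups overlapped. The log2 fold change was -0.20 (SE 0.13, 95% interval -0.49 to 0.08, edgeR adjusted p 0.938). It was -0.30 without control 2 and -0.13 without control 3. At its 3′ end it shares 6.59% of its exonic bases with Kat8 on the other strand, and no source used here says whether counting used strand. Kat8 had 238 to 307 counts per library, few beside the 5780 to 8454 of Prss8.

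Tmprss2 (ENSMUSG00000000385, chr16:97564682-97611195), another membrane-anchored serine protease, was the steadiest of the set. It was at 208, 214 and 211 CPM in the Hes1 cKO libraries. The controls were at 198, 197, 223 and 196 CPM, on both sides of these. edgeR put the log2 fold change at 0.05 (SE 0.080), with an adjusted p of 0.981. The 95% interval, from -0.13 to 0.23, has its upper end at a 1.17-fold rise.

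The same split by Xist was read for the other 7 genes, as differences of mean log2(CPM + 1), Hes1 cKO minus control. Each kept its sign in both sets of libraries, but the size varied. Scnn1a differed by 0.040 in the libraries with high Xist and by 0.39 in those with low Xist. St14 differed by 0.26 and 0.53, and Nedd4l by 0.25 and 0.19. Scnn1b differed by -0.31 and -0.032, Scnn1g by -0.36 and -0.17, and Prss8 by -0.33 and -0.084. With 1 Hes1 cKO library of high Xist, these differences were not tested against each other.

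**Figure D3:**
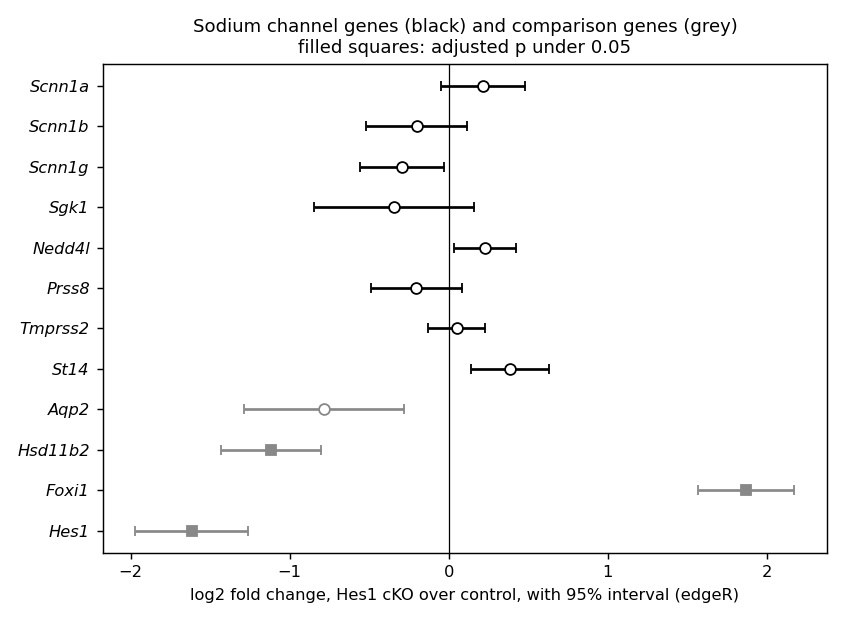
Log2 fold change of Hes1 cKO over control with its 95% interval from edgeR, for the 8 genes (black) and for Aqp2, Hsd11b2, Foxi1 and Hes1 (grey); filled squares have an adjusted p under 0.05. The 8 genes lie between -0.34 and 0.39 and none is filled, while Hsd11b2 lies at -1.12 and Foxi1 at 1.87.

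Genes were compared with each other per kb of exon, on the union of all exons of GENCODE M21. In control, Prss8 stood first at 219 ± 33.5 CPM per kb (SD, n = 4), and Scnn1a followed at 50.3 ± 7.71. Tmprss2 (27.9 ± 1.79), Sgk1 (25.9 ± 6.46) and Scnn1b (25.6 ± 4.83) came next, and neighbours in this order had overlapping ranges. St14 was at 18.0 ± 2.42 CPM per kb and Scnn1g at 16.0 ± 2.11, also with overlapping ranges. Nedd4l, with 17659 exonic bases, was lowest at 6.56 ± 0.510 CPM per kb. The alpha subunit transcript was thus the most abundant of the 3 per length. In Hes1 cKO the order of the subunits was the same, at 58.4 ± 2.07, 22.3 ± 2.19 and 13.1 ± 1.07 CPM per kb (SD, n = 3). St14 passed from the sixth place to the fourth by its mean, but its range (22.3 to 24.8) overlapped those of Scnn1b and Sgk1, which it passed. On the longest coding transcript, St14 held the same place in both groups. There Tmprss2 in control was at 64.4 CPM per kb, ahead of Scnn1a at 59.4, with ranges that overlapped.

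**Figure D4:**
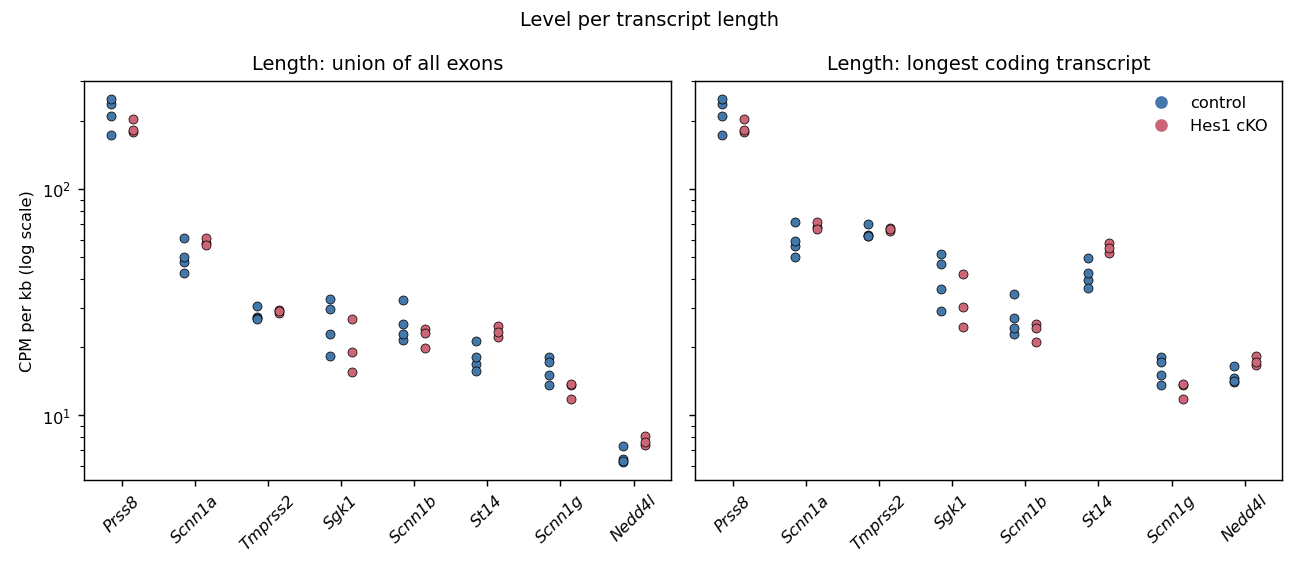
Level per length (CPM per kb, log axis) of the 8 genes in each library, with length taken as the union of all exons (left) or as the longest coding transcript (right). Prss8 is highest in both panels, and the level of genes with many alternative exons (such as Tmprss2, St14 and Nedd4l) moves with the length used.

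Of the principal cell markers 1 of 7 tested was called, lower, and of the intercalated cell markers 8 of 9 were called, all higher. Over all tested genes, 0.320% were called higher and 0.0192% lower. The called principal cell marker was Hsd11b2, the enzyme that shields the mineralocorticoid receptor of principal cells from glucocorticoids, at 92.2 to 114 CPM in Hes1 cKO and 195 to 278 CPM in control. edgeR put its log2 fold change at -1.12 (SE 0.14), with an adjusted p of 0.0104. The call was lost without Hes1 cKO 1 (0.0583) and without Hes1 cKO 2 (0.0757). Aqp2, which codes for the vasopressin-regulated water channel, was at 399 to 737 CPM in Hes1 cKO and 682 to 1107 CPM in control, a log2 fold change of -0.78 (SE 0.22), and was not called (edgeR adjusted p 0.512), while DESeq2's Wald test called it (0.0171). Foxi1, the transcription factor of intercalated cells, rose by 1.87 on the log2 scale (SE 0.13), with an edgeR adjusted p of 6.3e-04. Over the whole lists, 8 principal cell markers summed to 719 to 1165 CPM in Hes1 cKO and 1191 to 1805 CPM in control. Aqp2 was the largest part of this sum in every library. Of the 7 tested principal cell markers, 6 had a negative log2 fold change and 1 a positive one, of 0.19. The 9 intercalated cell markers summed to 1341 to 1441 CPM in Hes1 cKO and 476 to 634 CPM in control. The part of these shifts in the values of the 8 genes was not tested.

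ENaC is also expressed in the connecting tubule and the end of the distal convoluted tubule. The 4 connecting tubule markers (Calb1, Trpv5, Slc8a1 and S100g) had log2 fold changes of -0.43 to -0.19, none called, and summed to 558 to 852 CPM in Hes1 cKO and 776 to 1186 CPM in control. The 3 markers of the distal convoluted tubule had log2 fold changes of -0.52 to -0.17, none called. Every member of both lists had a negative log2 fold change, as did all 5 proximal tubule, 4 endothelial and 4 immune cell markers, so this sign was not particular to segments that express ENaC. Nor was it general: signs were mixed in the principal cell, thick ascending limb, podocyte and stroma lists. All 5 urothelial and all 6 adrenal markers were positive.

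The other genes of the pathway were read from 7 lists of 42 genes by role, of which 39 were tested. In these lists 1 gene was called, Hsd11b2, lower, where 0.320% of all tested genes were called higher and 0.0192% lower. At an unadjusted p under 0.05 there was 1 gene higher and 3 lower, beside 3.34% higher and 2.61% lower over all tested genes. The median log2 fold change was 0.019, with 22 genes above and 17 below 0.

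Of the receptors that induce the channel, Nr3c2, the mineralocorticoid receptor gene, was at 20.2 to 27.1 CPM in Hes1 cKO and 21.2 to 29.0 CPM in control (log2 fold change -0.09, edgeR adjusted p 0.980). Nr3c1, the glucocorticoid receptor gene, was at 92.3 to 116 CPM and 86.6 to 118 CPM (0.02, 0.996). Tsc22d3, a steroid-induced gene whose product GILZ acts with Sgk1 on the channel, was at 43.7 to 56.2 CPM and 39.0 to 59.1 CPM (0.03, 0.996). These ranges overlapped almost wholly. Of this list of 9 receptors and induced genes, only Hsd11b2 was called by edgeR. The signs of Nr3c2, Nr3c1 and Tsc22d3 are not settled, since each turned when 1 library was left out.

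Of 8 further proteases and inhibitors none was called. Furin, which cuts the alpha and gamma subunits inside the cell, was at 495 to 547 CPM in Hes1 cKO and 428 to 551 CPM in control (log2 fold change 0.13, edgeR adjusted p 0.947). Spint1 and Spint2, inhibitors of matriptase and prostasin, had log2 fold changes of 0.09 each (0.974 and 0.962). St14 over Spint1, per kb of exon, was 0.359 to 0.460 in Hes1 cKO and 0.298 to 0.350 in control, without overlap, as for St14 itself. The gap between the groups was narrow. This ratio is given with no test, and how often St14 over other genes separates the groups was not counted. Prss8 over Spint2 overlapped, at 1.86 to 2.25 and 2.09 to 2.67. Klk1, the tissue kallikrein of the connecting tubule, is named after its value was seen: it was at 725 to 761 CPM in Hes1 cKO and 793 to 1402 CPM in control, without overlap. edgeR put its log2 fold change at -0.60 (SE 0.18), with an adjusted p of 0.538. DESeq2's Wald test called it.

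Beside Nedd4l, the ligase list held Nedd4 (log2 fold change -0.04, edgeR adjusted p 0.990) and 6 other ligases and partner proteins, none called, between -0.18 and 0.06. The kinases upstream of Sgk1, including Pdpk1 and the mTORC2 gene Rictor, and the related kinases Sgk2 and Sgk3 lay between -0.02 and 0.08, none called. Dot1l and Mllt3, whose products repress Scnn1a transcription, were at 0.21 and 0.04 (edgeR adjusted p 0.934 and 0.992). Sodium that enters through ENaC leaves the cell through the Na,K-ATPase, whose beta subunit gene Atp1b1, expressed along the whole tubule, was at -0.14 (edgeR adjusted p 0.942). Fxyd4, a pump regulator of the collecting duct named after its value was seen, was at 12.9 to 19.2 CPM in Hes1 cKO and 19.8 to 29.2 CPM in control (log2 fold change -0.67, SE 0.18, edgeR adjusted p 0.435). DESeq2's Wald test called it. Of 5 acid-sensing channel genes, relatives of ENaC, only Asic1 and Asic2 had enough counts to be tested, and neither was called.

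**Figure D5:**
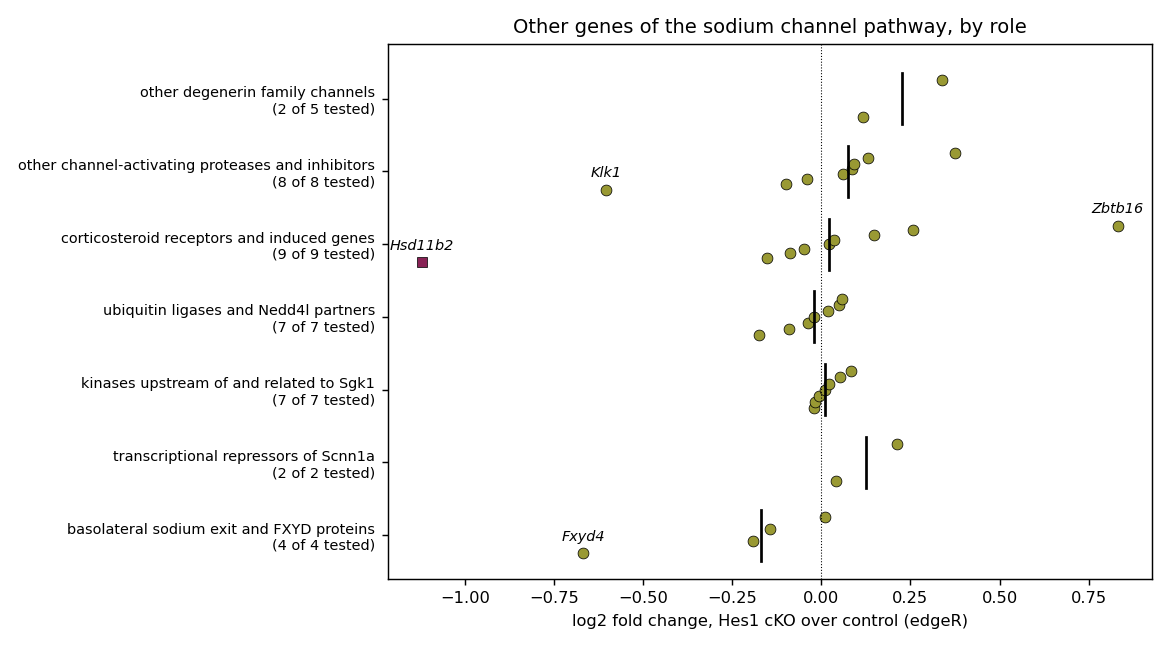
Log2 fold change of Hes1 cKO over control for the 39 tested genes of 7 lists by role; the black line is the median of a list, the square is the 1 called gene (Hsd11b2, -1.12), and names are given beyond 0.5 in size. The kinases and ligases lie close to 0, and the widest values are those of Hsd11b2, Fxyd4, Klk1 and Zbtb16.

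The genes with a profile most like each subunit were sought among 11208 tested genes of at least 5 CPM, by the root mean square difference of log2(CPM + 1), centred on each gene's mean, over the 7 libraries. For Scnn1a they were Pacsin3 (0.047), Lzts2 (0.049) and Rab17 (0.050), where the profile of Scnn1a itself had a root mean square of 0.18. For Scnn1b they were Scn4b (0.055), Epb4.1l4a (0.073) and G630090E17Rik (0.076), and for Scnn1g Gal3st1 (0.045), Ptgs1 (0.058) and Ift27 (0.061). Scnn1b and Scnn1g differed from each other by 0.11, and Scnn1a from them by 0.24 and 0.27. By that measure Scnn1g would stand at place 78 from Scnn1b, and Scnn1a at place 4868. From Scnn1g, Scnn1b would stand at place 124. The profiles of Scnn1b and Scnn1g themselves had root mean squares of 0.20 each.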

How the data were processed

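The authors deposited 2 tables of counts, whole-number read counts per gene with no normalization; the submitters' processing notes name FastQC, STAR, DESeq2 and the build mm10 (GRCm38), and no source used here gives the counting program, its annotation or its strand setting. Only the table whose column names show the genotype was used; 9 columns of the other, named by codes that show no genotype, were not. The titles name 7 Hes1 cKO and 9 control samples, while the series text states 9 and 7; the titles were used. Pairs of libraries of a group differed by more than sampling noise, with chi-square over its degrees of freedom at 11.8 to 41.0. That excess cannot by itself show separate animals, and each library was treated as 1 sample. Nothing in the column names ties the libraries to separate litters, and p-values measure only the spread between these libraries.

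Genes were kept by filterByExpr (minimum count 10), scaled by TMM and tested by edgeR's quasi-likelihood test (edgeR 4.0.16, R 4.3.3), adjusted by Benjamini-Hochberg over all tested genes; genes with an adjusted p under 0.05 are named as called. Standard errors and 95% intervals were derived from the F statistic and its degrees of freedom. Exact permutation tests ran on mean log2(CPM + 1). Positions and exon lengths are from GENCODE M21 (GRCm38), promoter windows from RefSeq (GRCm38.p6); 4 of the 7 genes looked up had one. The scripts were tested on simulated data. Alternatives were 2 scalings, DESeq2 1.42.0, limma-voom 3.58.1, 2 filters, an Xist and an adrenal covariate, and leaving out each library. Without molecular identifiers, counting error is a lower limit on the error of each count. The genes and lists were chosen with earlier results of these data known. The genes named are the 8, Hes1, called genes of the pathway lists, a set of receptors, proteases, inhibitors and a pump gene, Aqp2, Hsd11b2 and Foxi1, and the 3 profiles nearest to each subunit; 1 further gene of this rule is not reported here.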

Additional observations from a re-analysis of the deposited data

Results flagged for a closer look

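In 23 sets of 4 control values, 1 held a library far from the other 3, and chance alone puts a library this far out in about 1 in 20 sets. Tmprss2 was at 223 CPM in control 3 and at 196 to 198 CPM in the other controls, a gap of 0.901 times the range of the 4, which is above the 95% critical value of Dixon's test. Control 3 was also the highest control for Scnn1a, Scnn1b, Scnn1g, Sgk1, Prss8 and St14. Without control 3 the log2 fold change of Tmprss2 was 0.097 in place of 0.05.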

How the results depend on the processing

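The adrenal covariate and the subunit ratios with their left-out libraries were chosen after seeing the data. In 15 alternatives none of the 8 genes was called or changed sign; the smallest adjusted p was 0.129, for St14 by DESeq2's Wald test. The count of called genes was 53 and became 130 by DESeq2's Wald test, 102 without a low-count filter (the cause was not tested for either), and 25 to 47 when a library was left out (27 without Hes1 cKO 1, 25 without Hes1 cKO 2, with fewer samples). The called pathway genes were 1, then 3 by DESeq2's Wald test, and 0 to 1 with a library left out (0 without Hes1 cKO 1 or Hes1 cKO 2). Small log2 fold changes turned sign when a library was left out, with ranges of -0.18 to 0.018 for Nr3c2, -0.093 to 0.16 for Tsc22d3, -0.056 to 0.11 for Nr3c1 and -0.081 to 0.0026 for Nedd4. On the longest coding transcript the control level moved to 59.4 CPM per kb for Scnn1a, 41.0 for Sgk1, 14.9 for Nedd4l, 64.4 for Tmprss2 and 42.2 for St14, by construction. No paired analysis was possible because the column names carry no replicate number of the titles. Each of the 8 genes had at least 698 counts in every library.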

Other observations

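Of the 9 genes in the list of corticosteroid receptors and induced genes, 3 had their highest values in control 1 and Hes1 cKO 2, and they are named after their values were seen. Fkbp5 was at 156 CPM in control 1 and 132 CPM in Hes1 cKO 2, and at 42.7 to 89.5 CPM in the other 5 libraries. Zbtb16 was at 5.62 and 11.5 CPM in these libraries and at 2.12 to 3.60 CPM in the others, and Tsc22d3 at 59.1 and 56.2 CPM against 39.0 to 48.8 CPM. The other 6 genes of the list did not have this order: Per1 (73.6 CPM) and Usp2 (205 CPM) were highest in control 3, Nr3c2 (29.0 CPM) and Nr3c1 (118 CPM) in control 4, Cnksr3 was at 23.7 CPM in control 1 and 31.2 CPM in Hes1 cKO 2, and Hsd11b2 was lower in every Hes1 cKO library. Sgk1 did not share the order either, at 113 CPM in control 1 and 93.3 CPM in Hes1 cKO 2, while its highest values were in the libraries with high Xist. The adrenal genes summed to 791 CPM in control 1 and 2.67 CPM in Hes1 cKO 2.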
